A study of Mus musculus with 12 samples.

Results

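Injury was compared with sham handling in mice kept on the fish oil diet. The comparison used 6 of the 12 libraries of the study, namely injured replicates 2, 3 and 4 and sham replicates 2, 3 and 4, which were taken by their titles, and it ran across all 19252 expressed genes. All 6 libraries were made from brain tissue of wild-type mice, C57BL/6J per the series' design text, which describes the tissue as injured cortex. Every mouse behind them had received the high-fat diet with fish oil (FO) in cycles. The injured group had undergone rlmTBI, repeated closed head impacts rated less than mild, the sham group had not, and tissue was taken 6 months later. The other 6 libraries, sham and injured mice on a continuous purified control diet, are set beside these where a value calls for it. The diets differed in fat as well as in fish oil. By its title, the study asks how eicosapentaenoic acid, a fatty acid of fish oil, affects the metabolism of brain vessels and repair after injury. The labels give neither age nor sex, nor whether each library is 1 mouse, so p-values measure the spread between libraries, which may be partly technical.

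Repeated mild impacts are studied for lasting changes in vessels, glia and axons of the cortex. The lateral ventricles lie under the cortex and hold the choroid plexus, an epithelium that secretes cerebrospinal fluid and makes transthyretin (Ttr) at very high level, and their walls are lined by ependymal cells that beat motile cilia. Inside cells, secreted and membrane proteins fold in the endoplasmic reticulum. When unfolded protein builds up there, the sensors ATF6, IRE1 and PERK raise chaperones such as BiP (Hspa5), in part through a promoter element that ATF6 and XBP1 recognise.

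The 6 libraries held 52098134 to 70754854 counts each, so that the spread from library to library outweighed counting error (biological coefficient of variation 0.289). Cortical neuron transcripts were present in every library: Slc17a7, the vesicular glutamate transporter of cortical excitatory neurons, lay between 492 and 991 CPM, counts scaled to the library's size, and Tbr1, a transcription factor of deep cortical layers, between 71.8 and 141 CPM. Transcripts of neighbouring tissues were uneven between libraries and are described with each result below. Injured replicates 3 and 4 were rich in choroid plexus RNA, and sham replicate 2 was rich in RNA of striatal neurons. In bulk tissue, a change in the number of cells of a type and a change in RNA per cell cannot be told apart.

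No gene passed the test of injury on the fish oil diet (edgeR quasi-likelihood test, Benjamini-Hochberg adjustment over 19252 genes, threshold 0.05). At an unadjusted p under 0.05 there were 670 genes (3.48%), of which 305 were higher (1.58%) and 365 lower (1.9%) in injured libraries. All 3 injured libraries lay above all 3 sham libraries for 956 genes (4.97%) and below them for 1007 genes (5.23%). Values above 0 made up 49% of all log2 fold changes, and their median was -0.0051. The lowest adjusted p was 0.236, shared by Vwa5b1, which encodes a protein with a von Willebrand factor A domain, and the non-coding RNA 2900040C04Rik. Every other gene had an adjusted p of at least 0.835. DESeq2 called 37 genes, 36 of them higher and 11 of them in the choroid plexus list, limma-voom called 1, and edgeR without injured replicate 2 called 7. In the edgeR test used throughout, none of the values below is a called change.

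**Figure D1:**
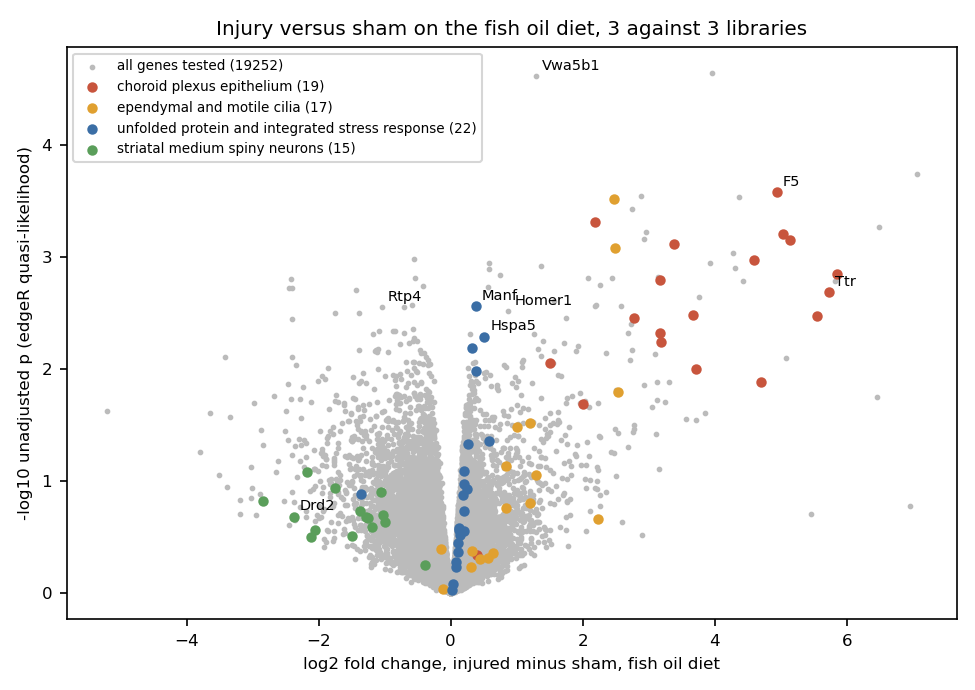
Each point is 1 of 19252 genes, with the log2 fold change of injured over sham libraries on the fish oil diet on the x axis and -log10 of the unadjusted edgeR p on the y axis, coloured by gene list. Choroid plexus genes form the right arm of the plot, with a list median of 3.68, while stress response genes sit at small positive values, with a list median of 0.19.

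Choroid plexus epithelium gave the highest fold changes among the lists examined. All 19 marker genes tested lay above 0, 18 of them at an unadjusted p under 0.05 against 1.58% of all genes, and 15 did not overlap between the groups against 4.97% of all genes. Their median log2 fold change was 3.68, beside -0.0051 over all genes and -1.14 for the same markers in the comparison of injured and sham libraries on the purified diet. The level also varied widely within groups. Ttr, the carrier of thyroid hormone and retinol in cerebrospinal fluid, measured 20.8, 50.1 and 20.8 CPM in sham replicates 2, 3 and 4, the order used for all values below. In injured replicates 2, 3 and 4 it measured 186, 2417 and 2256 CPM (log2 fold change 5.73 ± 1.42, SE, n = 3 and 3). Injured replicate 2 was thus above the sham libraries but far below the other injured libraries. Purified-diet sham replicate 3, a library with neither injury nor fish oil, measured 434 CPM beside 17.3 and 17.5 CPM in its group, and the 3 purified-diet injured libraries measured 9.82 to 23.4 CPM.

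Most of the other choroid plexus genes followed Ttr. F5, coagulation factor V (ENSMUSG00000026579.8, chr1:164151838-164220277, GRCm38, plus strand), measured 1.08, 1.13 and 1.16 CPM in sham and 6.51, 47.6 and 49.7 CPM in injured libraries (log2 fold change 4.94 ± 0.93, adjusted p = 0.835). Folr1, the folate receptor that moves folate into cerebrospinal fluid, measured 0.380, 0.352 and 0.452 against 1.31, 20.3 and 17.4 CPM (5.04 ± 1.06). Enpp2, which encodes autotaxin and is also made by oligodendrocytes, measured 235, 347 and 213 against 427, 1559 and 1632 CPM (2.19 ± 0.45). In each of these genes the injured and sham libraries did not overlap, and injured replicates 3 and 4 held most of the difference. Kl, the anti-ageing hormone klotho, the tight-junction claudin Cldn2, the potassium channels Kcnj13 and Kcne2, the bicarbonate transporter Slc4a5 and the water channel Aqp1 were likewise highest in injured replicates 3 and 4 among the fish oil libraries, with log2 fold changes of 3.38, 5.15, 3.17, 4.59, 5.85 and 4.70. Aqp1 departed from Ttr on the purified diet, where injured replicate 3 held 32.5 CPM of Aqp1 with 9.82 CPM of Ttr. Slc13a4, a sulfate transporter also made in the meninges, had the lowest log2 fold change of the list, 0.40 ± 0.52. Without injured replicates 3 and 4 the list median was 1.48, and with the library's choroid plexus score as a covariate it was -0.12. That score, the list's mean log2 CPM relative to all 12 libraries, was -0.98, -0.92 and -0.86 in sham libraries. In injured libraries it was 0.66, 3.34 and 3.30. The groups did not overlap in it, so adjusting for it can also remove part of any injury difference, here and in the results below.

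**Figure D2:**
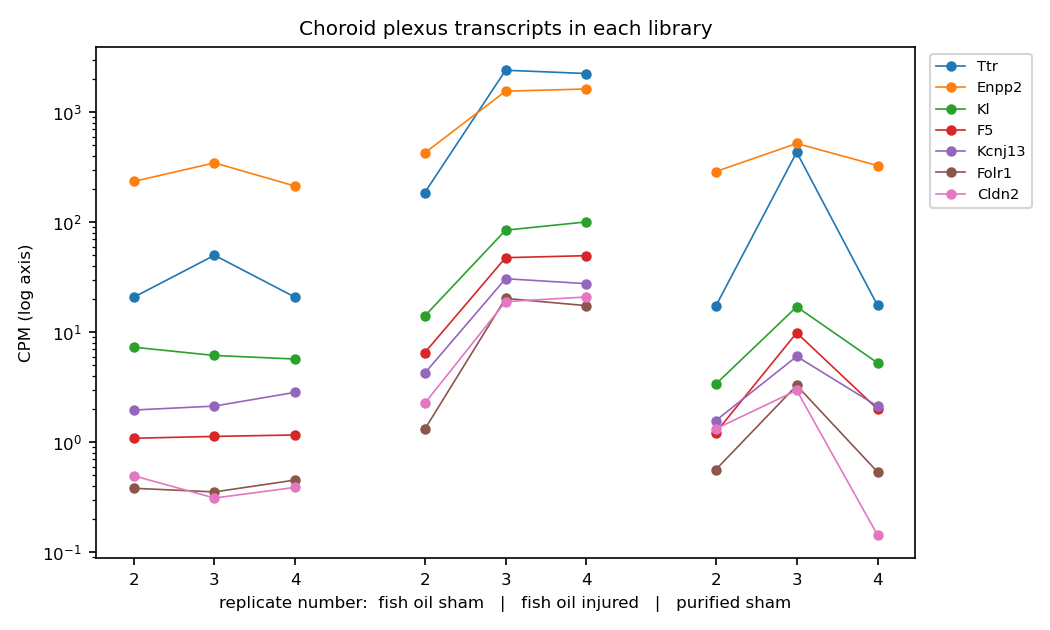
CPM on a log axis of 7 choroid plexus genes (colours) in the fish oil sham, fish oil injured and purified sham libraries, with 1 point per gene and library and lines joining libraries of a group. Fish oil injured replicates 3 and 4 stand highest, with Ttr at 2417 and 2256 CPM, and purified sham replicate 3 rises above its group with Ttr at 434 CPM.

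To see which genes kept step with Ttr, the excess of each gene over the fish oil sham mean was divided by the excess of Ttr in the same library. For purified sham replicate 3 the excess was taken over the mean of the other purified sham libraries. Per 100 CPM of Ttr excess, F5 gained 1.95 and 2.18 CPM in injured replicates 3 and 4 and 1.98 CPM in the choroid-rich purified sham library. Kcnj13 gained 1.19, 1.14 and 1.00 CPM, and Enpp2 gained 54.2, 61.4 and 51.0 CPM. Of the 18 choroid plexus genes other than Ttr, 16 lay within 1.5 times of each other in injured replicates 3 and 4, and the purified sham library lay within 1.5 times of their mean for 13 and within 2 times for 16. Choroid plexus transcripts thus stood in nearly the same proportion to Ttr in a library without injury as in injured replicates 3 and 4. Injured replicate 2, where the excesses were small, lay within 2 times of that mean for 13 of the 18, with F5 at 3.46 CPM and Enpp2 at 104 CPM. It lay above that mean by more for 3 genes, Prlr at 9.57 CPM, Calml4 at 0.771 CPM and Otx2 at 0.849 CPM. How choroid plexus RNA came to differ between the libraries was not tested.

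**Figure D3:**
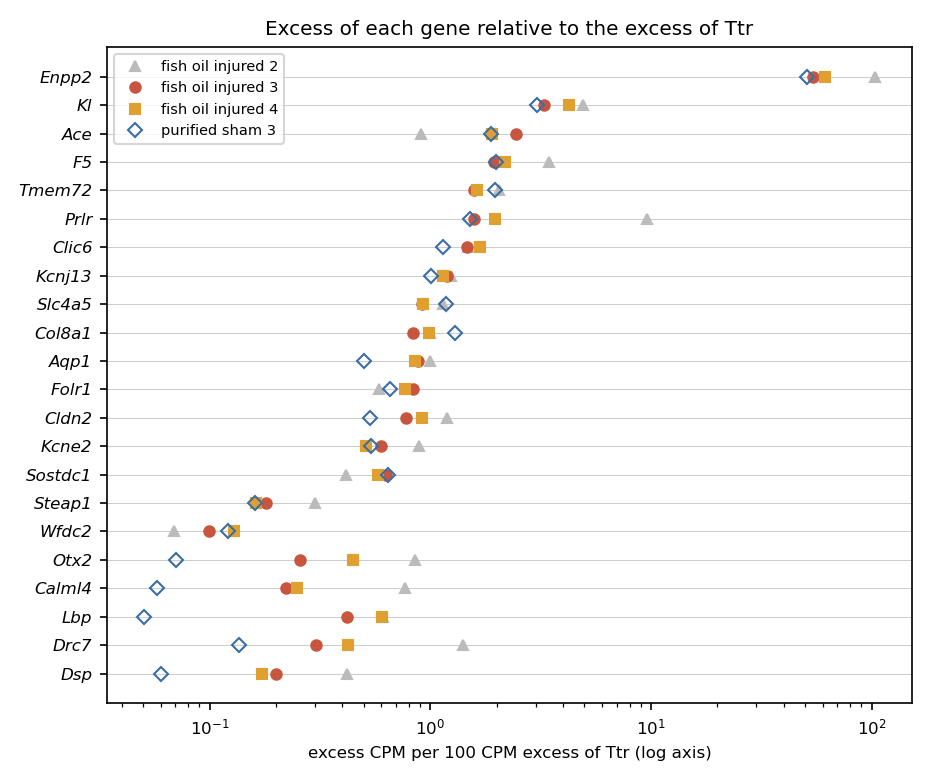
Excess CPM per 100 CPM of Ttr excess, on a log axis, for genes above sham in injured libraries, with 1 marker for each of the 3 fish oil injured libraries and the choroid-rich purified sham library. Values that were 0 or negative are not drawn. For F5, injured replicates 3 and 4 and the purified sham library coincide near 2, whereas for Lbp and Dsp the purified sham library lies well below the injured ones.

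Other genes, among them Lbp and Dsp, were high in injured replicates 3 and 4 without keeping that proportion. Lbp, the lipopolysaccharide-binding protein, measured 1.56, 1.25 and 1.03 CPM in sham and 2.24, 11.3 and 14.7 CPM in injured libraries (log2 fold change 2.88 ± 0.56). Its excess per 100 CPM of Ttr excess was 0.421 and 0.603 CPM in injured replicates 3 and 4, but 0.0502 CPM in the purified sham library. Dsp, which encodes desmoplakin of desmosomes and also marks granule cells of the hippocampus, measured 0.609, 0.507 and 0.517 against 1.20, 5.33 and 4.41 CPM (2.74 ± 0.56), with an excess of 0.201 and 0.174 against 0.0600 CPM. Both were thus higher, relative to Ttr, in injured replicates 3 and 4 than in the 1 choroid-rich library without injury. In that library Dsp measured 0.596 CPM. Calml4 and Otx2 of the choroid plexus list departed in the same direction. Calml4 stood at 0.223 and 0.248 against 0.0579 CPM, and Otx2 at 0.256 and 0.445 against 0.0702 CPM. Lbp and Dsp are therefore not set apart from the choroid plexus list by this measure. Without injured replicates 3 and 4 the log2 fold changes of Lbp and Dsp were 0.79 and 1.12. The intergenic RNA 2900040C04Rik, singled out after its values were seen, measured 0.0761, 0.169 and 0.194 against 0.763, 3.02 and 3.21 CPM (3.96 ± 0.58, adjusted p = 0.236), and 0.213 CPM in the purified sham library.

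Ependymal and motile cilia genes lay mostly above 0, at 15 of 17, with a median of 0.85, 5 of them at an unadjusted p under 0.05 against 1.58% of all genes and 7 without overlap against 4.97%. Drc7, a regulator of ciliary dynein, measured 1.73, 1.34 and 1.10 CPM in sham and 3.58, 8.63 and 10.9 CPM in injured libraries (2.47 ± 0.49). Dnah6, an inner-arm dynein heavy chain, measured 0.799, 1.21 and 1.10 against 4.03, 4.42 and 9.08 CPM (2.49 ± 0.56). Injured replicate 2, low in Ttr, was above every sham library for 10 of the 17 genes, whereas over all genes that share was 24.9%. The list was not uniform: Foxj1, the master regulator of motile cilia, measured 2.11, 1.87 and 1.52 against 1.94, 2.33 and 2.60 CPM (0.32 ± 0.38), so that the groups overlapped. Spef2, a protein of the ciliary central apparatus outside the list, measured 1.35, 1.00 and 1.37 against 3.11, 2.84 and 3.72 CPM (1.38 ± 0.32) and was as high in injured replicate 2 as in replicate 3. The median of the list was 0.56 without injured replicates 3 and 4. The list's score, its mean log2 CPM relative to all 12 libraries, was highest in purified-diet sham replicate 2, at 1.14. Fish oil injured replicates 2, 3 and 4 stood at 0.49, 0.43 and 0.76. That sham library, with neither injury nor fish oil, held 6.55 CPM of Dnah6 and 2.89 CPM of Spef2, but 1.39 CPM of Drc7. How ciliary transcripts came to differ between the libraries was not tested.

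Vwa5b1 (ENSMUSG00000028753.12, chr4:138565360-138635884, GRCm38, minus strand), one of the genes with the lowest adjusted p, was not highest where Ttr was highest. It measured 4.602, 3.89 and 4.52 CPM in sham and 12.01, 8.93 and 10.97 CPM in injured libraries (log2 fold change 1.30 ± 0.19, adjusted p = 0.236). The highest value came from injured replicate 2, the library lowest in choroid plexus RNA of the 3. With the choroid plexus score as a covariate the log2 fold change was 1.54, and without injured replicates 3 and 4 it was 1.46. On the purified diet it was also higher in injured than in sham libraries, by 0.92 ± 0.19, and the difference between the diets was 0.37 (edgeR interaction, adjusted p = 0.828).

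The list for unfolded protein and the integrated stress response lay above 0 in 21 of 22 genes. Of the 22, 6 had an unadjusted p under 0.05 against 1.58% of all genes, and 10 did not overlap between the groups against 4.97%. Their median log2 fold change was 0.19, beside -0.0051 over all genes and -0.03 for the list on the purified diet. The differences were small, and those without overlap were chaperones and folding enzymes of the endoplasmic reticulum together with Xbp1.

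The ATF6 and XBP1 binding element (ERSE, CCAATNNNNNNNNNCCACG) lies in the promoters of several of these genes, which are shown because it is the regulatory sequence best known for this response. Promoter windows of 300 bases, from 250 before to 50 after the start in RefSeq (GRCm38.p6), were found for 20 of the 22 genes and searched on both strands. The 250 bases before the start are printed 5' to 3' on the gene's strand, with the element in capitals.
Hspa5 (chr2:34771840-34772089, plus strand): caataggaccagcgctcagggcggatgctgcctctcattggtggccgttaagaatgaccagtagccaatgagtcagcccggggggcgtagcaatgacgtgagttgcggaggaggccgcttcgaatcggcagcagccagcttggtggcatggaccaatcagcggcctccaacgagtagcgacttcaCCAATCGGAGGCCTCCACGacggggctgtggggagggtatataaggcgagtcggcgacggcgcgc
Dnajc3 (chr14:118937682-118937931, plus strand): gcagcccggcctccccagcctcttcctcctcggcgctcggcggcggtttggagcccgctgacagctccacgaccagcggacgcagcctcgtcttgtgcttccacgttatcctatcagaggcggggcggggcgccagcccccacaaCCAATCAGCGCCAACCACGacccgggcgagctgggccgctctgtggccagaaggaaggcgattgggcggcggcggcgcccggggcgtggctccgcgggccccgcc
Pdia6 (chr12:17266339-17266588, plus strand): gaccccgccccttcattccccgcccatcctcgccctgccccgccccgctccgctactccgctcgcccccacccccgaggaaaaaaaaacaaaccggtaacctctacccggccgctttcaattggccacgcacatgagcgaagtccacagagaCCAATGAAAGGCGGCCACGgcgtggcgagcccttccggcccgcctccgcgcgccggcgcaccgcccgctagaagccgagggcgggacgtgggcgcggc
Hsp90b1 (chr10:86705445-86705694, minus strand): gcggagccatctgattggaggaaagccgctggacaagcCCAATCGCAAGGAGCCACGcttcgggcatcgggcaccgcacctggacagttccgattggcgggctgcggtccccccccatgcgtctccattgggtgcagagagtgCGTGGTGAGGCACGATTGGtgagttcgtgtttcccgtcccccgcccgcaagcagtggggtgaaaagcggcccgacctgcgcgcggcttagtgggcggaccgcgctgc
In Hspa5 the element ends 47 bases before the start and in Dnajc3 it ends 87 bases before it. Hsp90b1 holds a pair, one on each strand. Written on the strand of the motif, Canx has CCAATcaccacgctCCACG, Calr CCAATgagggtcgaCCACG and Creld2 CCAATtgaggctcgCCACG. Thus 7 of the 20 windows (35%) held ERSE, against 37 of 27025 promoters (0.137%), and 0 of the 14 windows of choroid plexus genes. A related shorter element (ERSE-II, ATTGGNCCACG) was found in Dnajb11 and Herpud1, 2 of 20 (10%), against 12 of all promoters (0.044%). A match describes the letters of the window and is not evidence of binding. The list was chosen for this response, so its share describes the list and does not bear on injury. At 0.137% of promoters, a set of 14 windows would rarely hold a match, so the 0 does not set the choroid plexus genes apart.

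Among the chaperones, Hspa5, which encodes BiP, measured 232, 199 and 237 CPM in sham and 312, 339 and 295 CPM in injured libraries (log2 fold change 0.51 ± 0.15). Dnajc3, the BiP co-chaperone p58IPK, measured 75.7, 71.6 and 71.7 against 93.3, 90.2 and 91.4 CPM (0.33 ± 0.10). Manf, a small secreted protein of the endoplasmic reticulum that protects neurons, measured 20.3, 17.6 and 21.9 against 25.5, 25.9 and 26.6 CPM (0.38 ± 0.10). In all 3 genes the injured libraries were close together and stood above every sham library. The disulfide isomerase Pdia4 measured 35.5, 34.8 and 38.8 against 43.9, 52.6 and 46.1 CPM (0.39 ± 0.13), and Sdf2l1, a BiP cofactor, 3.10, 2.85 and 3.25 against 3.91, 4.09 and 5.74 CPM (0.58 ± 0.26). Xbp1, the transcription factor spliced by IRE1, measured 70.9, 78.6 and 72.4 against 100.5, 79.1 and 85.5 CPM (0.26 ± 0.12), the lowest injured library lying just above the highest sham one. The other genes without overlap were Hsp90b1, Pdia3, Pdia6 and Dnajb11, at 0.20, 0.18, 0.25 and 0.20.

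The groups overlapped for the other 12 genes of the list, among them chaperones and cofactors such as Calr, Canx and Hyou1 at 0.13, 0.10 and 0.08. Atf4, the transcription factor downstream of PERK, measured 79.8, 114 and 95.7 CPM in sham and 118, 91.0 and 112 CPM in injured libraries (0.15 ± 0.14), and Ddit3, the pro-apoptotic factor CHOP, lay at 0.04 ± 0.16. The ATF4 target Asns lay at 0.09 ± 0.16. Trib3, a pseudokinase induced by ATF4, was the only member below 0, at -1.36 ± 0.84 with at most 0.479 CPM in any of the 6 fish oil libraries.

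Injured replicate 2, the lowest in Ttr of the 3, was above every sham library for 14 of the 22 stress response genes, against 24.9% of all genes. Other lists shared this trait: the counts were 10 of 15 heat shock, 11 of 20 immediate early, 9 of 16 glucocorticoid and 9 of 18 clock genes. The part of choroid plexus RNA in the stress response values was not tested. Without injured replicates 3 and 4 the log2 fold changes were 0.48 for Hspa5, 0.34 for Manf, 0.34 for Dnajc3, 0.43 for Xbp1 and 0.26 for Pdia4, and the list median was 0.16. The choroid plexus score did not overlap between the groups. With it as a covariate the median was 0.09, with Manf at 0.35, Dnajc3 at 0.33, Pdia3 at -0.01 and Pdia6 at -0.08. On the purified diet the log2 fold changes were 0.20 ± 0.15 for Hspa5, 0.06 ± 0.10 for Manf and 0.08 ± 0.10 for Dnajc3, and no test of the difference between the diets passed.

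Genes that hold the element but lie outside the list were near the background. Over all tested genes whose window held ERSE or ERSE-II, 21 of 30 lay above 0 (70%), and 6 had injured libraries all above sham (20%). Of these, the 21 genes outside the stress response list had 12 above 0 (57.1%) and 1 with injured libraries all above sham (4.76%), next to 50.9% and 5.49% of the 13156 tested genes with a window. A further 2 of the 21 had injured libraries all below sham, next to 653 of the 13156. Their median was 0.03.

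**Figure D4:**
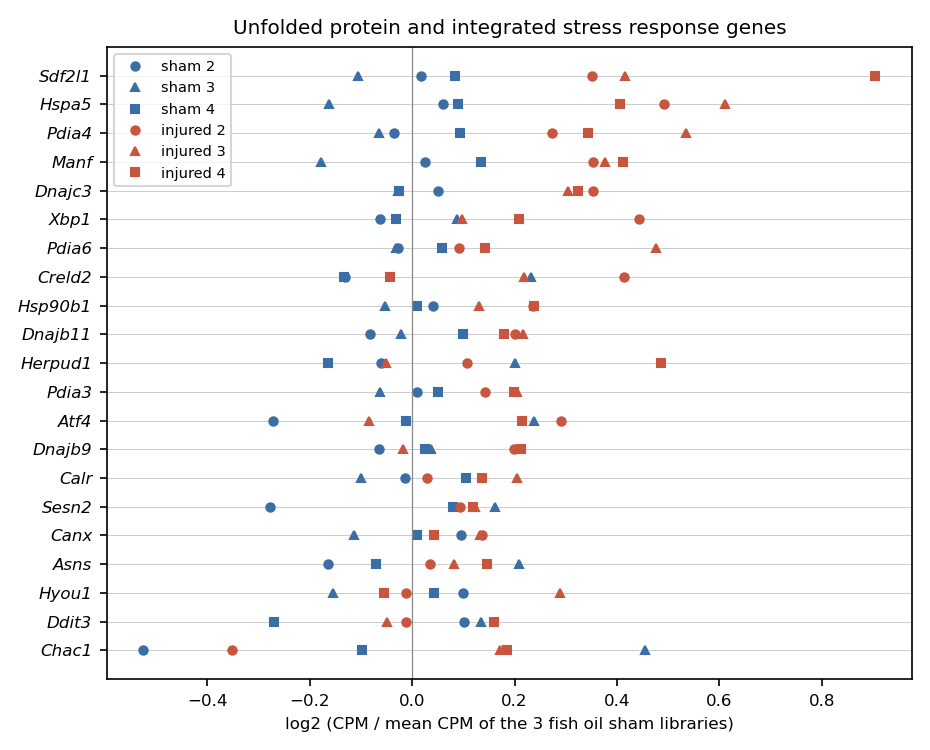
Level of stress response genes in each fish oil library relative to the sham mean, on a log2 axis, with blue markers for the 3 sham and orange markers for the 3 injured libraries. Trib3 is left out because 1 library held no count. Hspa5, Manf, Dnajc3 and Pdia4 show 3 injured points above 3 sham points, while Atf4 and Ddit3 overlap.

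Heat shock proteins lay above 0 in 14 of 15 cases with a median of 0.14. Against 1.58% of all genes, 1 of the 15 was higher at an unadjusted p under 0.05. That gene, Hsp90aa1, the inducible cytosolic HSP90, measured 1158, 1155 and 1172 CPM in sham and 1420, 1390 and 1344 CPM in injured libraries (0.25 ± 0.11). Hspa1a, the classical heat-inducible HSP70, measured 1.14, 1.78 and 1.89 against 4.02, 1.83 and 1.93 CPM (0.69 ± 0.42), so that only injured replicate 2 stood out. With the choroid plexus score as a covariate the list median was 0.05.

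Immediate early genes, which neurons switch on after firing, lay above 0 in 17 of 20 cases with a median of 0.28, and 4 were higher at an unadjusted p under 0.05, against 1.58% of all genes. Homer1, whose short form is induced by activity at the postsynaptic density, measured 185, 215 and 223 CPM in sham and 550, 249 and 343 CPM in injured libraries (0.87 ± 0.23). Bdnf, the activity-dependent neurotrophin, measured 25.1, 34.4 and 33.3 against 63.3, 41.2 and 36.6 CPM (0.60 ± 0.20). Both were highest in injured replicate 2 and did not overlap between the groups. The remaining genes of the list varied more from library to library, as Fos shows with 33.8, 53.7 and 31.2 against 77.9, 45.3 and 11.1 CPM. Without injured replicate 2 the list median was -0.05, and without replicates 3 and 4 it was 0.95. On the purified diet Homer1 lay at -0.50 ± 0.23 and Bdnf at -0.59 ± 0.20, and the test of the difference between the diets gave an adjusted p of no less than 0.820 for every gene.

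Synaptic genes lay above 0 in 19 of 20 cases with a median of 0.21. At an unadjusted p under 0.05, 2 of the 20 were higher, against 1.58% of all genes. Besides Homer1 this was the GABA-A receptor subunit Gabrb2, at 211, 192 and 202 CPM in sham and 241, 235 and 286 CPM in injured libraries (0.33 ± 0.14). The median of the list was -0.07 with the choroid plexus score as a covariate and -0.04 without injured replicates 3 and 4. Markers of cortical layers had a median of 0.13 and overlapped in all 18 cases, and interneuron markers had a median of -0.02. Tau, amyloid, synuclein and neurofilament genes, 18 in number, had a median of -0.0011. Of these, 1 of 18 was without overlap and higher, near the share of 4.97% of all genes. It was Gsk3b, a tau kinase, at 310, 295 and 309 against 344, 333 and 339 CPM (0.15 ± 0.10).

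Of 16 endothelial markers, 14 lay below 0 with a median of -0.10 and none at an unadjusted p under 0.05. Pecam1, the adhesion molecule CD31, measured 11.7, 13.1 and 10.99 CPM in sham and 11.9, 8.51 and 8.06 CPM in injured libraries (-0.33 ± 0.18), so that injured replicate 2 lay among the sham libraries. Pericyte and smooth muscle markers had a median of -0.23 with 11 of 13 below 0, and none had an unadjusted p under 0.05. Acta2, smooth muscle actin, measured 6.47, 2.42 and 3.31 against 1.64, 2.98 and 2.56 CPM (-0.76 ± 0.42).

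Of 20 angiogenic and Notch genes, 16 lay below 0 with a median of -0.15. Vegfa, the main endothelial growth factor, measured 57.5, 70.2 and 67.1 CPM in sham and 50.8, 50.03 and 49.7 CPM in injured libraries (-0.37 ± 0.13), without overlap and alike in all 3 injured libraries. Flt4, the receptor of VEGF-C, lay at -0.54 ± 0.34. Of 25 matrix genes, 18 lay below 0 with a median of -0.04, 2 had injured libraries all above sham and 3 all below, against 4.97% and 5.23% of all genes. The 3 lower ones, named here after their values were seen, were the basement membrane collagens Col4a1 (-0.40 ± 0.18) and Col4a2 (-0.44 ± 0.24) and the collagen VI chain Col6a1 (-0.43 ± 0.34). Col4a1 measured 27.2, 25.5 and 31.9 CPM in sham and 21.6, 22.9 and 19.7 CPM in injured libraries. The collagen Col8a1 measured 3.52, 4.27 and 4.26 against 5.56, 24.0 and 26.1 CPM (2.21 ± 0.57). Col8a1 kept step with Ttr, at 0.839 and 0.991 CPM per 100 CPM of Ttr excess in injured replicates 3 and 4 and 1.30 CPM in the choroid-rich purified sham library. Nid2, a basement membrane protein, lay at 0.86 ± 0.35 and at 0.24 without those replicates. Its excess per 100 CPM of Ttr excess was 0.121 and 0.0971 CPM in them, but -0.0280 CPM in the purified sham library.

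Junction and transporter genes of the blood-brain barrier had a median of 0.05, with 10 of 17 above 0. Slco1c1, a thyroid hormone transporter of brain endothelium and choroid plexus, measured 36.7, 40.4 and 44.1 CPM in sham and 46.7, 61.4 and 72.0 CPM in injured libraries (0.57 ± 0.14). Ocln, the tight-junction protein occludin, lay at 0.53 ± 0.18. Both were highest in the choroid-rich libraries, and without them the log2 fold changes were 0.19 and 0.19. Per 100 CPM of Ttr excess, Slco1c1 stood at 0.878 and 1.42 CPM in injured replicates 3 and 4 but at -0.217 CPM in the choroid-rich purified sham library. Ocln stood at 0.121, 0.201 and 0.206 CPM in the same libraries. Meningeal fibroblast markers lay below 0 in 11 of 14 cases with a median of -0.28, and Col3a1, a fibrillar collagen, lay at -0.77 ± 0.54. Igf2, a growth factor of meninges and choroid plexus and the member with the smallest p, went the other way at 1.56 ± 0.83, with 0.323, 0.141 and 0.614 against 0.200, 1.65 and 1.33 CPM, high in the choroid-rich replicates.

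Among the genes lower in injured libraries, Trank1, a large protein linked to mood disorder in genetic studies, measured 560, 534 and 597 CPM in sham and 427, 340 and 391 CPM in injured libraries (log2 fold change -0.55 ± 0.13). Epha10, an ephrin receptor, measured 43.4, 48.1 and 47.6 against 32.8, 38.5 and 32.4 CPM (-0.42 ± 0.11). In both the injured libraries lay below every sham library. The zinc finger gene Zkscan2 followed at -0.58 ± 0.15, the calcium-binding Casq2 at -1.08 ± 0.31, the cyclin Ccna2 at -0.88 ± 0.25, the metalloprotease inhibitor Reck at -0.56 ± 0.16, Ccdc57 at -0.57 ± 0.16 and the complement regulator Cd46 at -0.71 ± 0.19. None of these genes, which were chosen for a small p, overlapped between the groups. The same held for 317 of the 365 genes lower at an unadjusted p under 0.05. Injured libraries lay all below sham for 5.23% of all genes.

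RNAs that are retained in the nucleus also differed between the libraries. Malat1, Meg3, Neat1 and Miat together made up 0.519%, 0.544% and 0.680% of counts in sham and 0.591%, 0.293% and 0.353% in injured libraries. Injured replicates 3 and 4 were thus the low ones. The choroid-rich purified sham library was not low, at 0.811% beside 0.851% and 0.603% in its group. Of the 365 genes lower at an unadjusted p under 0.05, injured replicate 2 was the highest of the injured libraries for 188 (51.5%), against 33.4% of all genes. Of the 305 higher genes it was the lowest for 147 (48.2%), against 31.6%. The lower genes that were about as low in replicate 2 included Epha10, at -0.51 without replicates 3 and 4, and Reck, at -0.66, while Cd46 was at -0.50. The part of nuclear RNA or of choroid plexus RNA in these differences was not tested.

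Interferon response genes lay below 0 in 19 of 24 cases with a median of -0.21, beside 0.19 on the purified diet. Rtp4, an interferon-induced receptor transporter, measured 2.40, 2.25 and 1.82 CPM in sham and 1.15, 0.842 and 1.16 CPM in injured libraries (-1.04 ± 0.28). It was 1 of 5 genes of the list whose injured libraries all lay below sham, against 5.23% of all genes. Of the list, 3 genes were lower at an unadjusted p under 0.05, against 1.9% of all genes. Ifi27 went the other way at 0.41 ± 0.15, and at 0.02 without the choroid-rich replicates. Its excess per 100 CPM of Ttr excess was 0.288 and 0.660 CPM in those replicates, but -0.496 CPM in the choroid-rich purified sham library. The median of the list was -0.05 with the choroid plexus score as a covariate.

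Medians of immune lists were mostly just below 0. Homeostatic microglia markers had a median of -0.06 and overlapped in all 12 cases, and disease-associated microglia markers had a median of 0.03. Within the latter Lgals3, a galectin of activated microglia, measured 0.114, 0.240 and 0.0646 CPM in sham and 0.327, 0.667 and 0.539 CPM in injured libraries (1.84 ± 0.67), a difference at low level. Medians were -0.13 for perivascular macrophages and MHC class II, -0.08 for MHC class I, -0.10 for complement and -0.11 for cytokines and chemokines. Of 12 leukocyte markers 5 did not pass the filter on low counts, and the other 7 had a median of -0.77, with Cd4 at 25.5 CPM in the striatum-rich sham replicate 2 and at most 5.06 CPM elsewhere in the 6 libraries. Astrocyte markers lay at a median of 0.01 and overlapped in all 16 cases, and Slc1a2, the main glutamate transporter, measured 3977, 3854 and 4863 against 4643, 4907 and 5148 CPM.

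Myelin genes were below 0 in 16 of 16 cases, but with a median of -0.18, all overlapping and none at an unadjusted p under 0.05. The myelin gene Opalin measured 29.1, 35.1 and 15.3 CPM in sham and 28.3, 7.12 and 17.8 CPM in injured libraries (-0.58 ± 0.54). Injured replicate 2 was above every sham library for 8 of the 16. Oligodendrocyte precursor markers lay below 0 in 11 of 12 cases with a median of -0.17, and Olig1 was at -0.44 ± 0.28.

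Lipid genes bear on the diet. In the fatty acid oxidation list 18 of 21 genes lay above 0 with a median of 0.12. Ppara, the nuclear receptor that senses fatty acids, measured 1.77, 1.80 and 3.41 CPM in sham and 3.33, 4.90 and 3.85 CPM in injured libraries (0.79 ± 0.30), and Acot1, an acyl-CoA thioesterase, lay at 0.44 ± 0.20. Medians were -0.03 for fatty acid synthesis and elongation, 0.02 for DHA uptake and phospholipid remodelling and -0.02 for cholesterol synthesis. Elovl7, an elongase, lay at 0.73 ± 0.30.

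Of 17 prostaglandin and leukotriene genes, 3 had injured libraries all below sham, against 5.23% of all genes. Alox5, the 5-lipoxygenase that starts leukotriene synthesis, was the 1 of 17 with an unadjusted p under 0.05, against 1.9% of all genes that were lower. It measured 0.875, 0.873 and 0.807 CPM in sham and 0.345, 0.597 and 0.5004 CPM in injured libraries (-0.82 ± 0.34). Ptgs2, the inducible cyclooxygenase, went the other way at 0.63 ± 0.31, with 14.3, 24.8 and 10.03 against 34.3, 23.2 and 18.9 CPM, and its groups overlapped. Outside that list, Hpgds, which makes prostaglandin D2, was among the lower genes of smallest p and measured 13.5, 10.3 and 13.1 CPM in sham and 7.94, 9.84 and 8.01 CPM in injured libraries (-0.51 ± 0.15).

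Of 16 glucocorticoid-responsive genes 13 lay above 0 with a median of 0.18. Plin4, a lipid droplet protein induced by glucocorticoids, measured 2.83, 1.94 and 1.86 CPM in sham and 4.09, 4.30 and 5.70 CPM in injured libraries (1.09 ± 0.35), without overlap. On the purified diet it lay at -1.48 ± 0.35, and the test of the difference between the diets did not pass (edgeR interaction, adjusted p of no less than 0.820). Klf9, a transcription factor of the same response, lay at 0.34 ± 0.15. Of 18 clock genes 15 lay above 0 with a median of 0.09, and Per2 measured 28.2, 28.5 and 33.1 against 46.4, 41.0 and 28.8 CPM (0.37 ± 0.15).

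Energy genes had medians between 0.02 and 0.09. The median was 0.05 for nuclear genes of oxidative phosphorylation, 0.09 for mitochondrial genome transcripts, 0.04 for cytosolic ribosomal proteins, 0.02 for glycolysis and 0.07 for NRF2 targets, and in these 5 lists no gene had an unadjusted p under 0.05.

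Striatal neuron markers lay below 0 in all 15 cases, with a median of -1.38, and sham replicate 2 was high in them. The list's score was 3.18 in that library, 1.81 in purified-diet sham replicate 4 and 0.80 in fish oil injured replicate 4. Drd2, the dopamine D2 receptor, measured 72.2, 0.676 and 1.68 CPM in sham and 1.76, 2.07 and 10.5 CPM in injured libraries. Penk, which encodes proenkephalin, measured 474, 21.5 and 35.2 against 28.9, 39.2 and 49.2 CPM. For none of the 15 genes were the groups without overlap. Without sham replicate 2 the log2 fold change of Drd2 turned from -2.38 to 2.01 and that of Penk from -2.18 to 0.45. Olfactory bulb markers had a median of -0.64 here and 3.14 on the purified diet, where injured replicate 3 was rich in them. Its score, the mean log2 CPM of the list relative to all 12 libraries, was 4.28, and no other library exceeded 0.64. The median was -0.16 for hippocampal and thalamic markers and 0.06 for red cell markers. Prkcd, a kinase of thalamic neurons, measured 14.6, 12.5 and 10.1 against 7.92, 9.18 and 6.22 CPM (-0.67 ± 0.21).

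**Figure D5:**
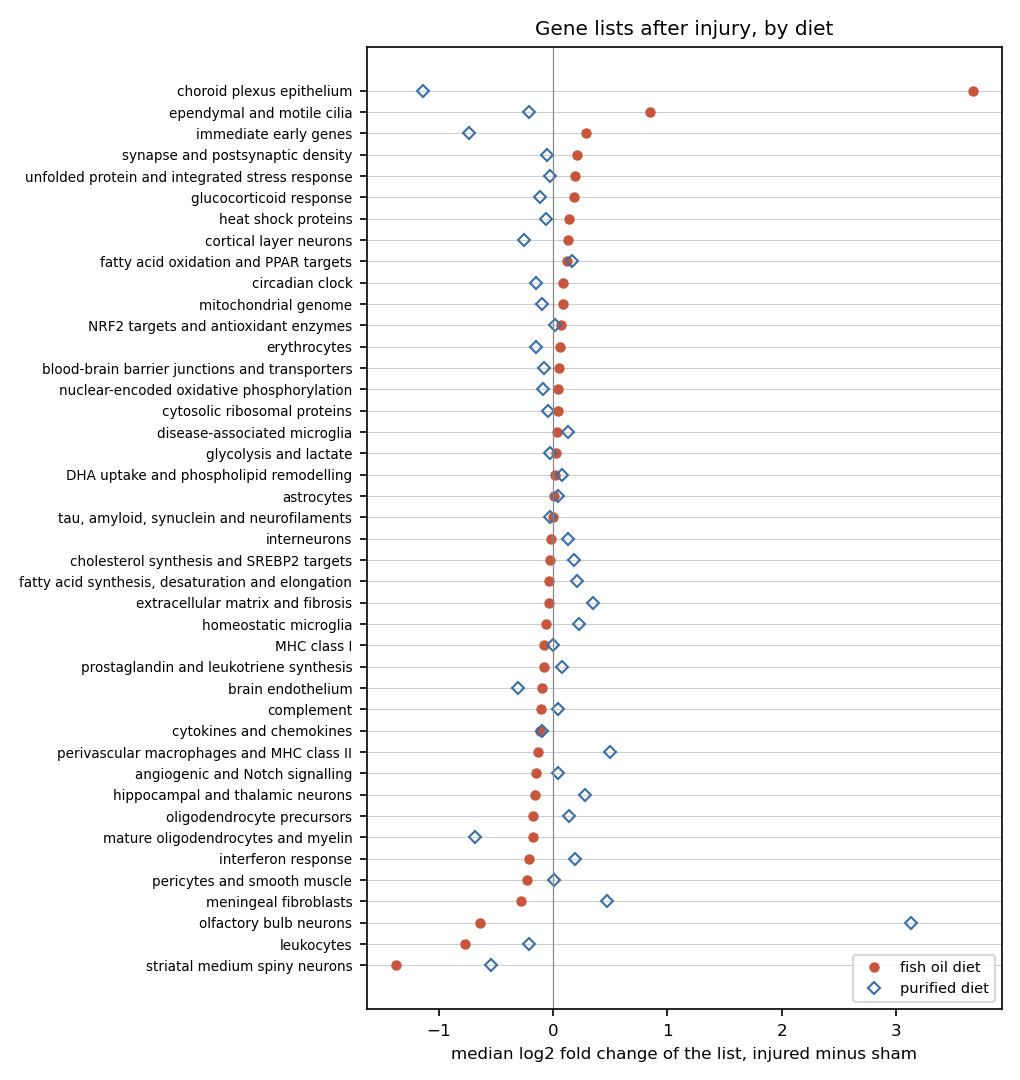
Median log2 fold change of injured over sham libraries for each of the gene lists, on the fish oil diet and on the purified diet. Choroid plexus stands at 3.68 on fish oil and -1.14 on the purified diet, striatal neurons at -1.38 on fish oil.

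The difference of the injury effect between the diets was tested in the same model, and no gene passed (0%, lowest adjusted p = 0.820), with 1108 genes at an unadjusted p under 0.05. The list medians on the 2 diets are therefore given side by side and were not tested against each other.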

How the data were processed

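RNA was measured in 12 brain libraries in 4 groups of 3, of which 6 belong to the fish oil diet. A Zymo kit was used for total RNA, the TruSeq Stranded kit for libraries and an Illumina NovaSeq for paired reads, per the labels' protocols. The tools named are STAR 2.5.2a and featureCounts 1.4.3-p1, and the build is mm10, per the submitters' processing notes. Not given in the sources used here are the annotation release, the strand setting and how multiply mapped reads were handled. Overlapping, antisense and near-identical genes could therefore have exchanged reads. Raw counts per gene were deposited, and values of 2 (20514) outnumbered values of 1 (11222), so both mates of a pair appear to be counted. Counting errors are then larger than the totals alone would give, and they stay below the spread between libraries.

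The table held 53379 genes. Symbols were matched for 53274 identifiers without version, and positions come from GENCODE M21 (GRCm38) for identifiers matched with version. Every pair of replicates differed beyond sampling noise, so each library counted once. Genes were kept with filterByExpr (minimum count 10), leaving 19252. edgeR 4.0.16 (R 4.3.3) fitted 4 group means to all 12 libraries with TMM factors (glmQLFit, glmQLFTest, robust, 8 residual degrees of freedom), two-sided, with Benjamini-Hochberg adjustment over all genes and a threshold of 0.05. CPM are TMM-scaled, and standard errors come from the F statistic. The smallest exact p of 3 against 3 libraries is 0.1, so no permutation test is given. Library scores of a list are mean log2 CPM (prior count 2). The procedure was checked on simulated counts.

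The comparison, the gene lists and the rule for named genes were chosen with earlier results of these data known, so list counts are descriptions. The rule named the 2 members of each list with the smallest p, the 12 genes above and the 12 below 0 of smallest p whose mean reached 1 CPM, 8 genes that also held with the choroid plexus covariate, and any member of the choroid plexus, stress response and striatal lists. It left out predicted genes, and some genes that met it are not reported here. Slc17a7, Tbr1, Foxj1, Fos, Col4a1, Col4a2, Col6a1, 2900040C04Rik and the nuclear RNAs were chosen after their values were seen. Alternatives were RLE factors, TMM factors without genes of other tissues, DESeq2 1.42.0, limma-voom (limma 3.58.1), other filters, the fish oil libraries only, a replicate block, the choroid plexus score as a covariate, a threshold of 0.10 and leaving out libraries.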

Additional observations from a re-analysis of the deposited data

How the results depend on the processing

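No gene was called under RLE factors, TMM factors without genes of other tissues, either other filter on low counts, the fish oil libraries only, a threshold of 0.10 or the choroid plexus covariate (276 genes at an unadjusted p under 0.05). DESeq2 called 37 genes, limma-voom called 1, and leaving out each library in turn gave 0 to 7, the 7 without injured replicate 2. The cause was not tested. The difference between the diets had 0 calls under every alternative run, which left out DESeq2 and limma-voom. With the replicate block 0 genes were called (559 at an unadjusted p under 0.05). Deviations of same-numbered libraries from their group means had correlations of 0.048, -0.31 and -0.29, and not every library correlated best with its own number. With 3 libraries a group these deviations sum to 0 in each group, so they cannot show whether the numbers pair the libraries.

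The choroid plexus median was -0.12 with the covariate, 1.48 without the 2 injured libraries highest in Ttr and 3.23 to 4.19 with each library left out. The ependymal median was 0.56 without those 2 libraries and 0.89 to 1.20 with each library left out. The stress response median was 0.088 with the covariate. Their other values kept their direction and moved less than the spread between libraries. With the covariate these genes changed sign: Folr1 (-0.28), Kl (-0.12), Kcnj13 (-0.56), Ttr (-0.30), Col8a1 (-0.37), Pecam1 (0.15), Pdia6 (-0.079), Pdia3 (-0.0076), Olig1 (0.058), Cd4 (0.51), Calr (-0.12), Opalin (1.17), Slc13a4 (-1.40), Igf2 (-1.96) and Hyou1 (-0.19). The covariate is itself built from choroid plexus genes and did not overlap between fish oil sham and injured libraries. It therefore cannot tell choroid plexus RNA apart from injury. Without the 2 libraries highest in Ttr, Opalin was at 0.077, Slc13a4 at -0.81, Igf2 at -0.85, Hyou1 at -0.027 and Ddit3 at -0.027. Fish oil sham replicate 2 was the library richest in striatal transcripts, and purified-diet injured replicate 3 the richest in olfactory bulb transcripts. Without these 2 libraries Penk was at 0.46, Drd2 at 2.02 and Cd4 at 1.04. Purified-diet sham replicate 4, with a striatal score of 1.81, stayed in that fit. Leaving out each library in turn gave -2.72 to 0.45 for Penk, -3.70 to 2.01 for Drd2, -4.24 to 1.03 for Cd4, -0.22 to 0.75 for Slc13a4, -0.034 to 0.142 for Hyou1 and -0.082 to 0.095 for Ddit3. A fit without the 2 libraries highest in Ttr has 1 injured library, which is assumed to vary like the other groups. With 3 libraries a group, the spread between libraries, not depth, limited what could be called.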

Other observations

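Camk1g, Rin2 and Ap1m1 were chosen because they kept their direction with the choroid plexus score as a covariate and did not overlap between the groups. These traits therefore describe the choice. Camk1g, a calcium and calmodulin dependent kinase of neurons, measured 22.9, 32.3 and 27.0 CPM in sham and 43.7, 34.7 and 38.1 CPM in injured libraries of the fish oil diet (log2 fold change 0.50 ± 0.17, SE, n = 3 and 3). Rin2, a regulator of the endocytic GTPase Rab5, measured 30.1, 33.0 and 34.7 against 43.3, 39.8 and 36.1 CPM (0.28 ± 0.12). Ap1m1, a subunit of the clathrin adaptor AP-1, measured 50.3, 52.4 and 50.9 against 37.2, 47.9 and 44.4 CPM (-0.25 ± 0.10). In Camk1g and Rin2 the highest value came from injured replicate 2, the library lowest in Ttr among the injured ones. Vtn, which encodes vitronectin and is made by pericytes, measured 56.6, 57.1 and 62.2 against 35.2, 57.5 and 40.3 CPM (-0.40 ± 0.22), and injured replicate 3 lay among the sham libraries.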
